A study of Mus musculus with 6 samples.

Results

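Expression of 7 *Slc30a* zinc exporter genes (*Slc30a1*, *Slc30a4* to *Slc30a9*) and 3 metallothionein genes (*Mt1*, *Mt2* and *Mt3*) was examined in mouse islets. They were found by gene name among the 55060 genes of the deposited expression table, and all 10 were present and passed the filter on low values. RNA-seq had been performed on islets of 12-week-old mice, with 3 Ctrl and 3 cKO samples. In cKO animals, Cre recombinase driven by the *Ins2* promoter deleted a floxed part of *Parn*, the gene of a poly(A)-specific ribonuclease, in β cells. The Ctrl mice were *Parn* f/f animals and other littermates. Because Ctrl animals can lack Cre, an effect of the transgene and one of the deletion cannot be told apart. The islets were released with collagenase P, picked by hand and kept in culture medium, and they also contain α, δ and other cells. Levels are given as FPKM, a fragment count scaled by gene length and library size. For replicates 1, 2 and 3, the library sizes by which the values had been scaled, read back from them, were 17448159, 15731223 and 16636542 in Ctrl against 17567373, 17386442 and 18085944 in cKO. Gene-assigned reads totalled 17519109, 16470783 and 17143763 for the Ctrl libraries, each above its size, whereas the cKO totals of 17064511, 16289408 and 17944775 were each below it. These sizes are thus scaling denominators and not plain read totals.

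*Parn* served to check the labels. Its FPKM was 6.64, 8.34 and 7.38 in Ctrl against 4.97, 4.61 and 6.15 in cKO. All cKO libraries were thus below all Ctrl libraries. Libraries without overlap, in either direction, were also seen for 13.1% of all genes tested. In the limma fit described below, the log2 fold change of *Parn* was -0.44 (unadjusted p 0.0135, adjusted p 0.545). The adjusted p was thus high even for the deleted gene, so a high adjusted p in this fit does not show that a gene is unchanged. The values are of the whole gene and whole islets, and the deleted part was not measured on its own.

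Zinc ions are packed with insulin into the secretory granules of β cells, where they form crystals with insulin hexamers. *Slc30a* genes encode ZnT proteins, which move zinc out of the cytosol, either into organelles and granules or across the plasma membrane. *Slc39a* genes encode ZIP proteins, which move zinc into the cytosol. Metallothioneins are small cysteine-rich proteins that bind zinc and copper in the cytosol, and their genes are classic targets of the zinc-sensing transcription factor MTF1.

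Between genotypes, the clearest difference among the 10 genes was a lower level of *Mt1* in cKO islets, at 0.700 times the Ctrl mean. *Slc30a8*, the granule exporter of β cells, was also lower on average, but its libraries overlapped. *Mt3* had a higher mean in cKO at a level near 1 FPKM. The other exporters differed by less than 0.3 on the log2 scale. Differences were tested with limma on log2(FPKM + 1), a scale that understates the change of weakly expressed genes, with Benjamini-Hochberg adjustment over the 21211 genes whose mean FPKM reached 0.1. None of the 10 genes had an adjusted p under 0.05, and neither did any other gene, *Parn* included (0 of 21211, 0%). The paper, which used DESeq2, did report differentially expressed genes and described *Slc30a8* as lower in cKO. The voom method of limma on the reads called 2 genes and limma without Ctrl replicate 1 called 1, none of them among the 10. An unadjusted p under 0.05 was reached by 2 of the 10 (*Mt1* and *Mt3*), compared with 1570 of all genes tested (7.4%). The libraries of the genotypes did not overlap for 3 of the 10 (*Mt1*, *Slc30a4* and *Mt3*), against 2786 of all genes (13.1%). Without Ctrl replicate 1, 5 of the 10 and 2424 of all genes had an unadjusted p under 0.05. Counts of 2 and 3 among 10 genes are too small to set these genes apart from the rest. Their median log2 fold change was 0.01, and that of all genes tested was -0.01.

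**Figure D1:**
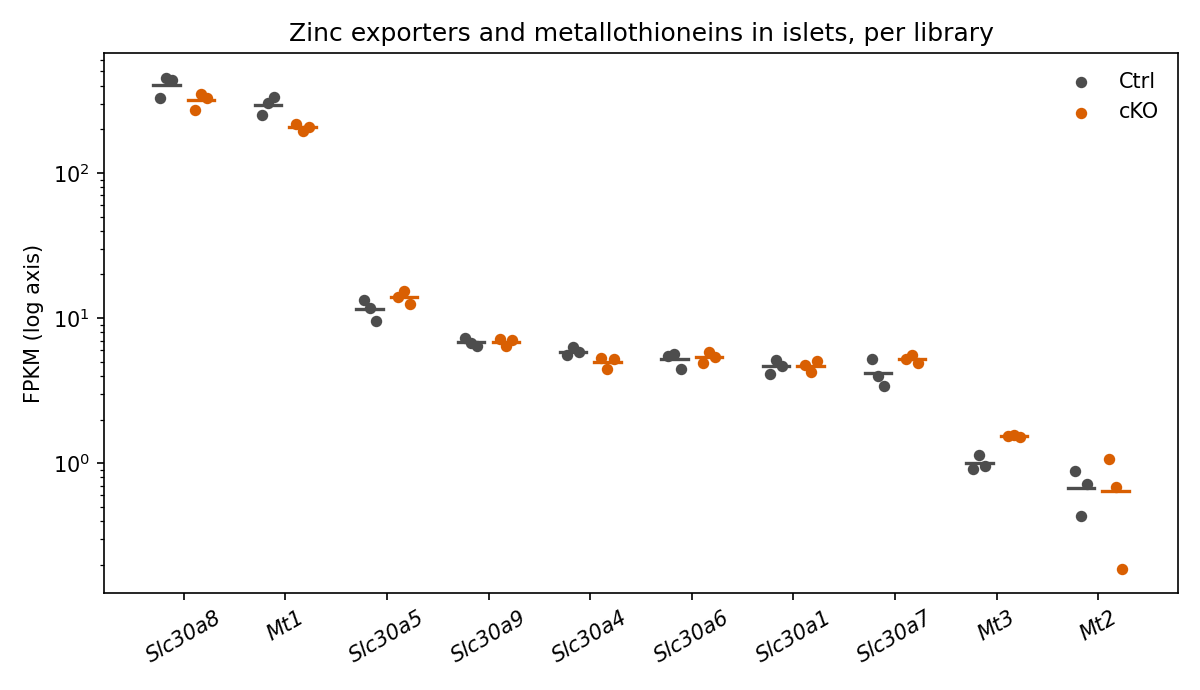
FPKM of the 10 genes on a log axis. Each point is 1 library (grey, Ctrl; orange, cKO; 3 each) and each line a group mean. *Slc30a8* and *Mt1* lie above 190 FPKM in all libraries, and the other 8 genes lie below 16. For *Mt1* every cKO point is below every Ctrl point.

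*Slc30a8* (ENSMUSG00000022315; chr15:52295553-52335798 of GRCm38, + strand) encodes ZnT8, which loads zinc into insulin granules. Its FPKM was 326, 454 and 437 in Ctrl against 271, 351 and 328 in cKO. Ctrl replicate 1 was the low library of its group and lay within the cKO range. The mean was 406 ± 69.8 (SD, n = 3) in Ctrl against 317 ± 41.1 (SD, n = 3) in cKO, and 9397 to 14344 reads per library lay behind these values. The log2 fold change was -0.35 (SE 0.179, 95% CI -0.78 to 0.08), with a limma unadjusted p of 0.0950 (0.0211 without Ctrl replicate 1) and an adjusted p of 0.726. The direction was the same in all 18 alternative fits, and the interval in the fit above included 0. Among all genes, *Slc30a8* ranked 65th by mean FPKM.

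A lower level in islet RNA can come from fewer β cells or from less RNA of the gene per β cell, and these cannot be told apart in bulk samples. The paper reported no significant difference in β-cell mass at other ages. It also reported a shorter half-life of *Slc30a8* RNA after *Parn* knockdown in a β-cell line. Neither was measured in these samples. Here, the level was set against a list of 9 β-cell genes, some of which themselves differed between genotypes without overlap. The log2 ratio of *Slc30a8* to the mean of this list was -1.92, -1.83 and -1.87 in Ctrl against -2.20, -1.86 and -2.03 in cKO. Relative to the other β-cell genes the groups differed by -0.16, with overlapping libraries and an exact two-sided permutation p of 0.3, where 3 libraries against 3 allow no p under 0.1. This difference was -0.0745 without cKO replicate 1 and -0.246 without cKO replicate 2. With *Ins1* and *Ins2* left out of the list, an alternative chosen after seeing the data, the sign was the same.

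*Slc30a8* accounted for most of the exporter transcripts. Its percentage of the summed FPKM of the 7 *Slc30a* genes was 88.8, 92.0 and 92.7 in Ctrl against 86.8, 89.4 and 89.1 in cKO. The mean percentage was 91.2 ± 2.08 (SD, n = 3) in Ctrl against 88.4 ± 1.399 (SD, n = 3) in cKO, with an exact two-sided permutation p of 0.3. The summed FPKM of the other 6 exporters was 41.0, 39.5 and 34.4 in Ctrl against 41.2, 41.8 and 40.2 in cKO. This sum, added after the values were seen, differed by 2.76 FPKM (exact two-sided permutation p 0.2), by 0.795 FPKM without Ctrl replicate 3 and by -0.07 FPKM after rescaling without hormone reads.

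Among the exporters of the secretory pathway, *Slc30a5*, *Slc30a6* and *Slc30a7* supply zinc to the early secretory pathway, with ZnT5 and ZnT6 acting as a heterodimer. *Slc30a5* had an FPKM of 13.4, 11.7 and 9.53 in Ctrl against 13.9, 15.3 and 12.6 in cKO. *Slc30a7* had 5.23, 3.96 and 3.40 in Ctrl against 5.19, 5.54 and 4.93 in cKO. For both genes Ctrl replicate 1 was the high library of its group and reached into the cKO range. Their log2 fold changes were 0.26 and 0.27, and their limma adjusted p values were 0.743 and 0.741. Leaving out each library gave 0.137 to 0.363 for *Slc30a5* and 0.160 to 0.411 for *Slc30a7*, lowest without Ctrl replicate 3 and highest without Ctrl replicate 1, where the unadjusted p was 0.0349 and 0.0108, against 0.107 and 0.106 with all libraries. *Slc30a6*, the partner of *Slc30a5*, had a mean FPKM of 5.22 ± 0.646 (SD, n = 3) in Ctrl against 5.37 ± 0.468 (SD, n = 3) in cKO, with overlapping libraries.

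*Slc30a4* encodes ZnT4 of endosomal and other vesicle membranes. Its FPKM was 5.53, 6.27 and 5.81 in Ctrl against 5.27, 4.48 and 5.18 in cKO. Every cKO library lay below every Ctrl library, and the lowest Ctrl and the highest cKO library were close. The log2 fold change was -0.20 (SE 0.0996, limma adjusted p 0.714).

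*Slc30a1*, the exporter of the plasma membrane and itself an MTF1 target, had an FPKM of 4.11, 5.14 and 4.68 in Ctrl against 4.75, 4.22 and 5.07 in cKO. The genotypes overlapped throughout, and the 95% CI of the log2 fold change ran from -0.26 to 0.28. *Slc30a9*, whose product exports zinc from mitochondria, had the narrowest interval of the 10 genes, from -0.20 to 0.23. Its FPKM was between 6.46 and 7.24 in all 6 libraries. The direction of *Slc30a1*, *Slc30a6* and *Slc30a9* turned with the scaling or the libraries used.

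*Mt1* (ENSMUSG00000031765; chr8:94179082-94180327, + strand) had the highest deposited FPKM of the metallothioneins, with a limit on *Mt2* given below. Its FPKM was 251, 303 and 334 in Ctrl against 219, 194 and 209 in cKO. The cKO libraries lay close together and all below the lowest Ctrl library, which was again Ctrl replicate 1. The mean was 296 ± 42.2 (SD, n = 3) in Ctrl against 207 ± 12.3 (SD, n = 3) in cKO, from 4207 to 6926 reads per library. The log2 fold change was -0.50 (SE 0.137, 95% CI -0.83 to -0.17), with an unadjusted limma p of 0.00906 and an adjusted p of 0.502, and all 3 cKO libraries showed the direction. The unadjusted p stayed under 0.05 in 17 of 18 alternative fits and was 0.0706 after quantile normalization.

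Set against the 9 β-cell genes, a comparison added after the values were seen, *Mt1* was still lower in cKO. The log2 ratio was -2.30, -2.41 and -2.26 in Ctrl against -2.51, -2.71 and -2.68 in cKO. These libraries did not overlap either, and the exact two-sided permutation p of 0.1 is the smallest this design allows. Metallothioneins are made in many cell types, so the cells from which the *Mt1* reads came are not known.

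*Mt3*, a metallothionein best known from neurons, had an FPKM of 0.914, 1.13 and 0.959 in Ctrl against 1.55, 1.56 and 1.504 in cKO. All cKO libraries were higher than all Ctrl libraries, in the direction opposite to *Mt1*. The counts were small, with 17, 19 and 17 reads in Ctrl against 29 in each cKO library. The log2 fold change of 0.34 (SE 0.108) had an unadjusted limma p of 0.0167 and an adjusted p of 0.546. The unadjusted p stayed under 0.05 in 16 of 18 alternative fits, with a highest value of 0.104. Because of the 1 added to FPKM this change is understated. The ratio of mean FPKM was 1.54, and the log2 fold change was 0.578 with a pseudocount of 0.1, 0.698 with voom on reads and 0.619 with voom and median ratio library sizes, both voom fits with an unadjusted p above 0.05. The lowest of the 18 was 0.286, after rescaling without hormone reads.

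*Mt2* (ENSMUSG00000031762; chr8:94172664-94173568, + strand) lies next to *Mt1* and is usually induced together with it, yet it was nearly absent from these values. Its FPKM was 0.877, 0.432 and 0.716 in Ctrl against 1.06, 0.685 and 0.188 in cKO, from 2 to 11 reads per library. The log2 fold change was -0.05 (95% CI -0.59 to 0.49, limma adjusted p 0.976), and its sign turned when Ctrl replicate 1 (0.03) or cKO replicate 3 (0.16) was left out. The genes are arranged on chromosome 8 in the order *Mt4*, *Mt3*, *Mt2* and *Mt1* within 43.1 kb, all on the + strand. In the annotation, the antisense gene *Gm45774* (chr8:94170748-94173412, − strand) covers 432 of the 588 exonic bases of *Mt2*, or 73.5%, and 156 bases are free of overlap. *Gm45774* itself had 63, 49 and 66 reads in Ctrl against 60, 50 and 53 in cKO. Whether the counting used strand is not given in the sources used here, so reads of *Mt2* and of its antisense partner cannot be told apart, and the level of *Mt2* relative to *Mt1* cannot be read from these values. No exonic base of *Mt1* or *Mt3* is shared with another gene. The transcripts of *Mt1* and *Mt2* have no run of 25 bases in common, and *Mt1* shares 3 of its 1267 such runs with *Mt3* and none with any other gene.

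**Figure D2:**
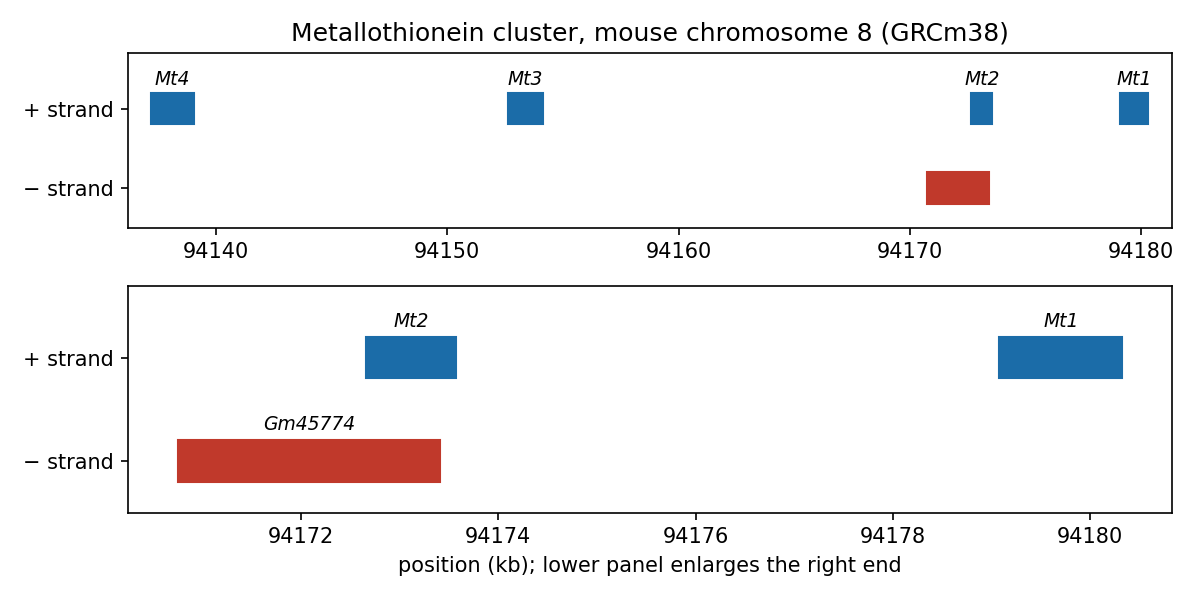
Map of the metallothionein cluster on chromosome 8 (GRCm38, position in kb), with gene bodies on the + strand in blue and on the − strand in red. The lower panel enlarges the end with *Mt2* and *Mt1*. *Gm45774*, on the − strand, overlaps most of *Mt2* and ends before *Mt1*.

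The summed FPKM of *Mt1* and *Mt2* was therefore almost that of *Mt1* alone, at 252, 304 and 335 in Ctrl against 220, 195 and 209 in cKO, with an exact two-sided permutation p of 0.1. The log2 ratio of *Mt1* to *Mt2*, on FPKM + 1, had a mean of 7.47 ± 0.354 (SD, n = 3) in Ctrl against 7.02 ± 0.391 (SD, n = 3) in cKO, and carries the limit just given for *Mt2* (exact permutation p 0.2).

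Promoter sequences from RefSeq on GRCm38.p6, from 250 bases before to 50 bases after the start of a gene, matched 9 of the 10 genes, the exception being *Slc30a8*. They were searched on both strands for TGCACNC and TGCGCNC, the core of the metal response element that MTF1 binds, with overlapping matches counted as 1. *Mt2* had 4 matches, *Mt1* and *Slc30a4* had 3 each, *Slc30a1* had 2, and *Slc30a5* and *Mt3* had 1. *Slc30a6*, *Slc30a7* and *Slc30a9* had none. Of 32851 promoters of the same length, 25.7% held at least 1 match, 6.14% at least 2, 1.31% at least 3 and 0.295% at least 4. A match is a description of letters and not a binding site. The counts depend on the start assigned to each gene, and bases outside the window, including those further into the gene, were not searched. They are therefore not a full count of the sites of a gene. The stretches before the starts of the genes known as MTF1 targets are shown with capitals marking the matches. They lie at chr8:94178839-94179081 for *Mt1*, chr8:94172368-94172617 for *Mt2* and chr1:191906531-191906766 for *Slc30a1*, all on the + strand, and hold 1, 3 and 1 of the matches counted above, the others lying past the ends of these stretches. The stretches end before the GENCODE start of *Mt1* and *Slc30a1* and before the RefSeq start of *Mt2*.
Mt1: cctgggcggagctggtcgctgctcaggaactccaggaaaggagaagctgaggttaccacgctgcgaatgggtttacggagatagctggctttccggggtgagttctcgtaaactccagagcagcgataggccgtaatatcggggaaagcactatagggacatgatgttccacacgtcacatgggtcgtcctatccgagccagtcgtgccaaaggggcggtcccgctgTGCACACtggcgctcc
Mt2: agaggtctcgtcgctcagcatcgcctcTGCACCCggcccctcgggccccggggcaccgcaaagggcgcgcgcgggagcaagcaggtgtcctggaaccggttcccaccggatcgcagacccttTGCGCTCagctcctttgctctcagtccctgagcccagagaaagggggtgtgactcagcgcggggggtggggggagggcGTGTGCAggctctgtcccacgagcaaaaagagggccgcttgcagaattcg
Slc30a1: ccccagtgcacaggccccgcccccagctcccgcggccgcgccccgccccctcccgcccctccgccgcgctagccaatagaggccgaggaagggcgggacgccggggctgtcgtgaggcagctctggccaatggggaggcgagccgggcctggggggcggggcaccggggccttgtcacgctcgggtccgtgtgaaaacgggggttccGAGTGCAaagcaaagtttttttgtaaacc

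By level per length, *Slc30a8* and *Mt1* stood far above the rest in both genotypes, and the ranges of this pair overlapped in Ctrl (lowest *Slc30a8* library 326, highest *Mt1* library 334 FPKM) and were apart in cKO (271 against 219). *Slc30a5* followed and then *Slc30a9*, each apart from its neighbours in both genotypes. Among *Slc30a4*, *Slc30a6*, *Slc30a1* and *Slc30a7*, the ranges of neighbours in the order of means overlapped in either genotype, although in Ctrl all *Slc30a4* libraries lay above those of *Slc30a1* and *Slc30a7*. *Mt3* lay below these exporters, and *Mt2*, with the limit on its reads given above, is not placed in the order. The order at the top depends on the length assigned to a gene. The deposited length of *Mt1*, 1246 bases, is that of all its annotated exons joined, whereas its principal spliced transcript has 549 bases. With principal transcript lengths, chosen as an alternative after seeing the data, the Ctrl mean of *Mt1* was 672, above the 406 of *Slc30a8*, whose deposited and transcript lengths are both 1971. A gene's length is the same in both genotypes and enters their comparison only through the 1 added to FPKM and the filter, which matter for weak genes such as *Mt3*.

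Of 5 other zinc exporters and metallothioneins, 4 stayed under 0.5 FPKM. *Slc30a3* had an FPKM of 0 in 5 of 6 libraries, *Slc30a10* reached at most 0.0436, *Slc30a2* stayed between 0.113 and 0.479, and *Mt4* was at 0 in every library. *Tmem163*, a zinc exporter without an *Slc30a* name, was the most abundant of this list. It had 15.3, 16.1 and 19.1 FPKM in Ctrl against 16.3, 11.6 and 15.4 in cKO, a range that overlaps that of *Slc30a5*. Neither of the 2 genes tested in this list passed an unadjusted p of 0.05.

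Of 14 zinc importers, 13 were tested, of which 10 had a higher and 3 a lower mean in cKO. Of all genes tested, 53.5% had a lower mean. The median log2 fold change of the importers was 0.14 against -0.01 over all genes. After rescaling without hormone reads, 8 of the 13 had a higher mean and the median was 0.04, so these counts depend on the scaling. Only *Slc39a11* passed an unadjusted p of 0.05. This importer had an FPKM of 5.05, 5.30 and 4.29 in Ctrl against 6.63, 6.08 and 7.67 in cKO, without overlap. Its log2 fold change was 0.40 (limma unadjusted p 0.0128, adjusted p 0.545), and the unadjusted p stayed under 0.05 in all 18 alternative fits. The libraries were also apart, and higher in cKO, for *Slc39a6* and *Slc39a8*. This makes 3 of the 13 importers without overlap, against 13.1% of all genes tested. *Slc39a1* was the most abundant importer, with a mean of 16.8 ± 2.23 (SD, n = 3) in Ctrl against 18.6 ± 0.561 (SD, n = 3) in cKO. *Mtf1*, which encodes the zinc sensor, had an FPKM of 3.13, 3.68 and 4.18 in Ctrl against 3.60, 3.05 and 3.14 in cKO, with overlap (limma adjusted p 0.850).

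**Figure D3:**
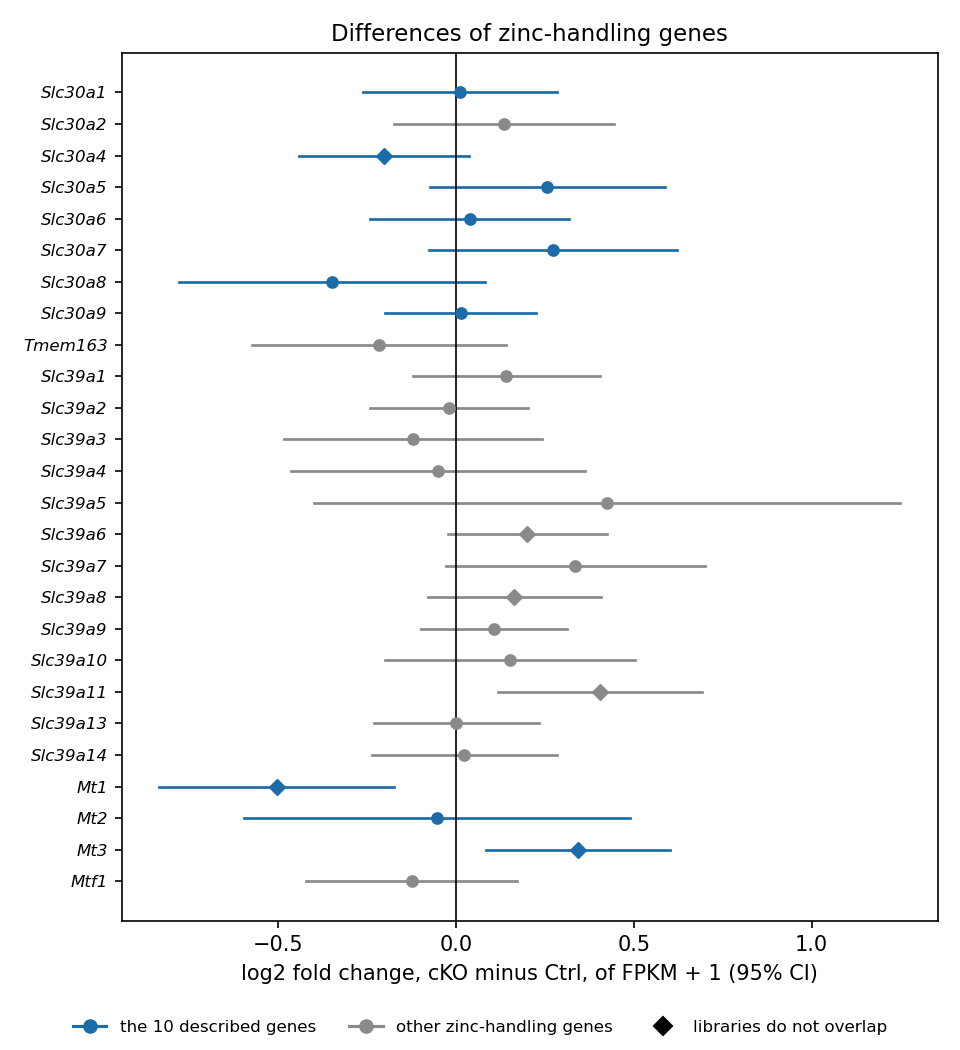
Log2 fold change of FPKM + 1, cKO minus Ctrl, with its 95% CI, for the 10 genes (blue) and other tested zinc-handling genes (grey). Diamonds mark genes whose libraries do not overlap between genotypes. *Mt1* lies furthest to the left at -0.50. Of the *Slc30a* genes, each interval includes 0.

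The genes with the pattern most like that of *Slc30a8* over the 6 libraries, among 3873 genes whose mean FPKM reached 10, were *Acot13* (Pearson r 0.996), *Lamtor1* (0.992) and *Acat1* (0.981). *Acot13* encodes an acyl-CoA thioesterase, *Lamtor1* a lysosomal anchor of mTORC1 signalling and *Acat1* a mitochondrial thiolase. *Acot13* had an FPKM of 38.9, 52.4 and 51.9 in Ctrl against 34.0, 42.8 and 40.8 in cKO, low in Ctrl replicate 1 and cKO replicate 1 as *Slc30a8* was. The genes most like *Mt1* were *Vps37a* (0.989), *Polr3gl* (0.988) and *Selenon* (0.982), which encode an ESCRT-I subunit, an RNA polymerase III subunit and a selenoprotein of the endoplasmic reticulum. The r between *Slc30a8* and *Mt1* was 0.763. The 6 libraries form 2 groups, so each r includes the difference between genotypes.

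Markers of islet and other cells were present in all libraries. For the counts that follow, 53.5% of all genes tested had a lower mean in cKO and 7.4% had a limma unadjusted p under 0.05. Of the 9 β-cell genes, 7 had a lower mean in cKO and 1 (*Ucn3*, a marker of mature β cells) passed an unadjusted p of 0.05, as it did in 13 of 18 alternative fits but not after quantile normalization (p 0.0526) nor without Ctrl replicate 2 or 3 or cKO replicate 1 or 2. Without Ctrl replicate 3, 4 had a lower and 5 a higher mean, with a median log2 fold change of 0.018. *Ucn3* had an FPKM of 184, 284 and 298 in Ctrl against 156, 157 and 188 in cKO, with overlap through Ctrl replicate 1, and differed by -0.58 on the log2 scale (limma adjusted p 0.597). The 2 genes with a higher mean, named after their values were seen, were *G6pc2*, a glucose-6-phosphatase subunit of islets, and *Pdx1*, a transcription factor of β cells. *G6pc2* had an FPKM of 1092, 1266 and 992 in Ctrl against 1428, 1476 and 1422 in cKO, without overlap (log2 fold change 0.38, limma unadjusted p 0.0888, adjusted p 0.720), and *Pdx1* stood at 0.04 with overlap. In limma without the trend, 3 of the 9 passed an unadjusted p of 0.05 with a lower and 1 with a higher mean. *Ins2*, the most abundant gene, had a mean FPKM of 168013 ± 12091 (SD, n = 3) in Ctrl against 122054 ± 12099 (SD, n = 3) in cKO, without overlap, and *Ins1* had 69285 ± 6580 and 67455 ± 3087 (SD, n = 3 each). *Iapp*, named after its values were seen, was also lower in cKO without overlap, at 17011, 23853 and 20792 FPKM in Ctrl against 14109, 14450 and 13486. Its log2 fold change was -0.54 (limma unadjusted p 0.480, adjusted p 0.896). At such levels the trended variance of limma gave a standard error of 2.87 for *Ins2* and 0.719 for *Iapp*. The unadjusted p of *Ins2*, 0.877, fell to 0.00635 in limma without the trend (adjusted p 0.476, and 0.345 or more in every alternative). The summed FPKM of the β-cell list was 235639, 268321 and 275948 in Ctrl against 195134, 204893 and 217318 in cKO. It was lower in each cKO library than in any Ctrl library, but most of it is *Ins2* and *Ins1*, so it does not speak for the other genes of the list.

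The summed FPKM of the α-cell list, led by *Gcg*, overlapped between genotypes at 11101, 12514 and 16392 in Ctrl against 8778, 16335 and 12826 in cKO. None of the 4 δ-cell genes, led by *Sst*, nor *Ppy* of PP cells passed an unadjusted p of 0.05. Their sums were 4280, 6985 and 6338 against 5087, 7987 and 6187 for δ cells, and 17895, 17271 and 6846 against 13903, 14340 and 11221 for *Ppy*.

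All 8 acinar genes, led by *Ctrb1*, were abundant and had a higher mean in cKO, though none passed an unadjusted p of 0.05 (4 without cKO replicate 2). Their summed FPKM was 16171, 20992 and 8285 in Ctrl against 37140, 9926 and 30593 in cKO. The 6 leukocyte genes, led by *Cd74*, had a summed FPKM of 867 in Ctrl replicate 1, against 140 and 138 in the other Ctrl libraries and 145, 239 and 239 in cKO, so that all 6 had a lower mean in cKO with this library and a higher mean without it. *Lyz2* alone was at 539 in Ctrl replicate 1 and at 15.6 to 56.0 elsewhere. Ctrl replicate 1 was also the Ctrl library with the lowest *Slc30a8* and *Mt1*. Without it the log2 fold change was -0.50 for *Slc30a8* and -0.62 for *Mt1*, with limma adjusted p values of 0.350 and 0.195, the lowest of any alternative for each gene. The part of the acinar and leukocyte RNA in the zinc genes' values was not tested.

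Of 5 endothelial genes, *Plvap*, the most abundant, and *Cdh5* had higher means in cKO with an unadjusted p under 0.05 (log2 fold changes 0.43 and 0.36), and the sum was 126, 115 and 134 in Ctrl against 135, 147 and 166 in cKO. *Plvap* passed in all 18 alternative fits and *Cdh5* in 13, not after rescaling without hormone reads (p 0.113) nor without Ctrl replicate 1 or 2 or cKO replicate 2 or 3. *Esm1*, named after its values were seen, had a lower mean in cKO, at 31.5 in Ctrl against 25.9 (log2 fold change -0.26, limma unadjusted p 0.0749), and after rescaling without hormone reads 1 gene of the list passed with a lower and 1 with a higher mean. Of 5 stromal genes, led by *Dcn*, *Col3a1* passed the same threshold (1.20), with sums of 14.6, 7.37 and 10.8 in Ctrl against 11.01, 33.6 and 35.9 in cKO. *Col3a1*, whose libraries overlapped, passed in 11 of 18 alternative fits, and of those leaving out a library only without cKO replicate 1, where all 5 stromal genes passed. Of 5 duct genes, led by *Spp1*, *Cftr* passed it (1.23), with sums of 67.6, 27.8 and 36.7 in Ctrl against 53.2, 41.1 and 53.5 in cKO. None of 4 Schwann-cell genes passed it. No marker of these lists was at 0 in all libraries, and *Cftr* was at 0 in Ctrl replicate 3. The limma adjusted p values of *Plvap*, *Cdh5*, *Col3a1* and *Cftr* were 0.518 to 0.659, and the part of these cells in the values of the zinc genes was not tested.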

How the data were processed

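Islet RNA was isolated by the TRIzol method and turned into libraries with a SMARTER mRNA-Seq kit, and the authors deposited FPKM values per gene for each of the 6 samples on GRCm38 (build from the submitters' processing notes). The authors compared genotypes with DESeq2 and reported genes that were higher and lower in cKO. DESeq2 was not run here, so the limma calls given above are not a repeat of theirs. The aligner, the counting tool, its use of strand and the annotation are not given in the sources used here. Within each sample, the product of FPKM and deposited gene length moved in whole steps, within 0.01 reads, for 100% of values, so reads and library sizes were read back. They served for depth and alternatives.

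Here, log2(FPKM + 1) was compared between 3 Ctrl and 3 cKO samples, grouped by the labels, with limma 3.58.1 in R 4.3.3 (trended empirical Bayes, two-sided tests, Benjamini-Hochberg adjustment) where a gene's mean FPKM reached 0.1. Values built from several genes were compared with exact permutation tests over 20 assignments. Exon overlaps and transcript sequences came from GENCODE M21. Figures were drawn with matplotlib 3.10.9 in Python 3.11.15. The code was tested on simulated data.

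The 10 genes and 8 pathway and 10 cell type lists were chosen with earlier results of these data known, and the lactogen list was partly drawn from them. Named genes were the 10, in each list those with an unadjusted p under 0.05 and the most abundant, the 3 most like *Slc30a8* and *Mt1*, and *Parn*, *Ins1* and *Ins2*; others were chosen after their values were seen. Separate samples are taken as separate animals; where they were not, p-values measure only the spread between samples. Alternatives were another pseudocount, filter, variance model, scaling, read-based test, sample weights, the replicate number as a block and leaving out each sample. The LACE-seq and protein data were not analysed here, and some marker genes that were tested are not reported here.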

Additional observations from a re-analysis of the deposited data

How the results depend on the processing

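The fit was repeated in 18 alternative ways, 6 of which left out a sample each. *Slc30a8*, *Mt1*, *Slc30a4*, *Slc30a5*, *Slc30a7* and *Mt3* kept their direction in all of them, and no member reached an adjusted p under 0.05 in any. Leaving out each sample gave log2 fold changes of -0.50 to -0.24 for *Slc30a8*, -0.62 to -0.41 for *Mt1* and -0.23 to 0.16 for *Mt2*. Genes with an adjusted p under 0.05 numbered 0 in limma on FPKM, 2 with voom on reads (*Chgb* and *Ehhadh*, the latter at a log2 fold change of 1.43) and 0 to 1 when a sample was left out (*Phlda3*, without Ctrl replicate 1). With library sizes set by the median ratio, chosen after seeing the data, voom gave 0. Genes with an unadjusted p under 0.05 numbered 1570, with 2512 under sample weights, 2424 without Ctrl replicate 1, and 1165 to 2424 over the samples left out. Of these genes, 41.5% had a lower mean in cKO, but 69.8% after rescaling without hormone reads, 35.6% after quantile normalization, 17.9% with voom and 49.6% with sample weights, so shares of higher and lower genes depend on the scaling.

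After rescaling without hormone reads, the sign turned for *Slc30a1* (-0.076), *Slc30a6* (-0.050), *Slc30a9* (-0.079) and the summed FPKM of the 6 exporters other than *Slc30a8* (-0.070), and under sample weights for *Slc30a1* (-0.036). It also turned in samples left out, with ranges of -0.058 to 0.075 for *Slc30a1*, -0.050 to 0.094 for *Slc30a6*, -0.020 to 0.053 for *Slc30a9* and -0.11 to 0.018 for *Ins1*, which was 0.052 with voom. The ratio of the Ctrl means of *Mt1* and *Slc30a8* was 0.730 with deposited lengths and 1.66 with principal transcript lengths. With the replicate block, 0 genes had an adjusted and 1275 an unadjusted p under 0.05. Same-numbered samples deviated with r of -0.171, -0.0219 and -0.0652, so the numbers pair nothing. The causes of these shifts were not tested. Depth limits *Mt2* and *Mt3*, with 2 to 29 reads per library.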

Other observations

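Genes of neighbouring metal and stress pathways were read in the same fit. In it, 53.5% of all genes tested had a lower mean in cKO and 7.4% had a limma unadjusted p under 0.05. The lists are small, and whether their counts differ from these shares was not tested. Of 12 genes of copper and iron handling, 4 had a lower and 8 a higher mean in cKO, and 2 passed an unadjusted p of 0.05, both lower. After rescaling without hormone reads, 9 of the 12 had a lower mean. *Ftl1*, the ferritin light chain, had an FPKM of 282, 363 and 328 in Ctrl against 247, 225 and 245 in cKO, without overlap, and differed by -0.43 on the log2 scale (limma adjusted p 0.545). *Tfrc*, the transferrin receptor, had 15.5, 10.1 and 15.2 in Ctrl against 9.58, 10.3 and 9.81 in cKO (-0.40, limma adjusted p 0.671). Its libraries overlapped, and its unadjusted p of 0.0489 stayed under 0.05 in 6 of 18 alternative fits, with a highest value of 0.170, and of those leaving out a sample only without Ctrl replicate 2. That of *Ftl1* did so in 17. *Fth1*, the ferritin heavy chain and most abundant of the list, averaged 397 in Ctrl against 387 in cKO. The r of *Ftl1* with *Mt1* over the 6 libraries was 0.949, given as a description.

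Of 8 tested oxidative stress genes, led by *Prdx1*, 3 had a lower and 5 a higher mean (6 and 2 after rescaling without hormone reads), and *Gclc*, of glutathione synthesis, passed an unadjusted p of 0.05 (log2 fold change 0.24, limma adjusted p 0.659), but in only 9 of 18 alternative fits and, of those leaving out a sample, only without Ctrl replicate 1. Metallothioneins also respond to glucocorticoids. Of 8 glucocorticoid-responsive genes, led by *Dusp1*, 6 had a lower mean in cKO. *Fkbp5* passed the unadjusted threshold, with 9.15, 8.55 and 8.53 FPKM in Ctrl against 6.29, 7.51 and 5.12 in cKO (-0.43, limma adjusted p 0.546; unadjusted 0.0504 without Ctrl replicate 1). *Cdkn1a*, which is also a p53 target, passed it in the opposite direction (1.94, limma adjusted p 0.454). None of the 9 cytokine and acute phase genes, led by *Nfkbia*, passed it, and 8 had a lower mean in cKO, but 3 without Ctrl replicate 1, with *Saa3* at 36.9 FPKM in Ctrl replicate 1 and at most 0.530 elsewhere.

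Of 11 lactogen response genes, a list partly drawn from earlier results of these data and so no independent evidence, 10 passed an unadjusted p of 0.05, all with a higher mean in cKO and without overlap, and 7 to 9 passed when a sample was left out. *Ehhadh* had 8.56, 9.02 and 7.36 FPKM in Ctrl against 21.5, 18.2 and 23.7 in cKO, which is 1.25 on the log2 scale (limma adjusted p 0.274, between 0.0361 and 0.666 over the alternatives). The others were *Tph1*, *Tph2*, *Ivd*, *Matn2*, *Socs2*, *Cish*, *Prlr*, *Cldn8* and *Lrrc55*, while *Ccnd2*, the most abundant, stood at -0.01. The median log2 fold change of the list was 1.25, and that of the 10 zinc exporter and metallothionein genes was 0.01. Because of how the lactogen list was chosen, these medians cannot be weighed against each other.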
